A study of Callithrix jacchus with 4 samples.

Results

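Serotonin, dopamine, adrenaline and noradrenaline (the monoamines) and acetylcholine reach the frontal cortex through long fibres whose cell bodies lie in the brainstem, midbrain and basal forebrain. The cortex therefore holds mainly the receiving side of these systems. Most of their receptors are G protein-coupled: Gs raises cyclic AMP, Gi lowers it and Gq activates phospholipase C. The HTR3 serotonin receptors and the nicotinic acetylcholine receptors are ion channels built from several subunits. The genes described here are those of the count table whose symbols belong to the serotonin (HTR), dopamine (DRD), adrenergic (ADRA and ADRB), muscarinic (CHRM) and nicotinic (CHRN) families. They numbered 51 of the 35108 genes in the table: 16 serotonin, 5 dopamine, 9 adrenergic, 5 muscarinic and 16 nicotinic. The choice used symbols alone and no measured value.

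RNA was sequenced from frontal cortex of adult Callithrix jacchus, the common marmoset, which is a New World primate. The 4 libraries were 2 from wild-type animals, with no sex given, and 2 from female animals labelled as carrying an APP transgene. The series title describes the transgene as a mutant amyloid precursor protein gene under the human EF1α promoter, which is active in most cell types. The comparison asks which receptor genes differed between transgenic and wild-type cortex.

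The wild-type libraries 1 and 2 held 12657323 and 13569838 counts, and the transgenic libraries 1 and 2 held 13462167 and 18932180. Levels are given in CPM, read counts scaled to the library size after TMM normalization, and were not divided by transcript length, so they are compared between libraries and not between genes. A count of 3 corresponded to 0.17 to 0.23 CPM. The labels do not state that each library came from its own animal. The Y-linked gene KDM5D had counts of 2 and 243 in the wild-type pair and of 0 in both transgenic libraries. Sex and genotype therefore cannot be fully told apart. Transgenic library 2 stood apart in its glial genes: the summed level of 12 astrocyte markers was 4278 CPM there against 10232 to 12271 CPM in the other libraries. For this reason fold changes are also given without it. APP itself was at 1822 and 2182 CPM in the wild-type pair against 2143 and 2748 CPM in the transgenic pair (edgeR adjusted p = 0.80). The excitatory neuron markers summed to between 5349 and 6413 CPM and the inhibitory neuron markers to between 975 and 1207 CPM over the 4 libraries.

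No receptor gene passed the test for a difference between transgenic and wild-type cortex. Of the 51 genes, 39 had enough counts to be tested, and 0 of the 39 were called by edgeR's quasi-likelihood test at an adjusted p of 0.05, where 0% of all 16385 genes tested were. DESeq2 and limma-voom also called 0 of the 39. DESeq2 called 0.293% of all genes, and limma-voom 0%. At an unadjusted p under 0.05 there were 2 receptor genes, ADRA1D and CHRM5, both higher in sign, in a table where 5.62% of all genes were under that value (3.23% higher and 2.39% lower). DESeq2 gave 1, ADRA1D, where 5% of all genes were under it, and edgeR without wild-type library 1 gave 0 (1.53% of all genes). Without wild-type library 2 edgeR gave 3, ADRA1A, ADRA1D and DRD5 (2.53% of all genes). Adjusted p-values of the 39 genes lay between 0.79 and 0.99. With 2 libraries against 2, the smallest two-sided p of an exact permutation test of a single gene is 0.33, and such tests were not used.

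The highest fitted log2 fold change was 1.33. Of the 39 genes, 24 had a positive and 15 a negative sign, a share of 61.5% higher against 49.6% of all genes tested. With library totals in place of TMM scaling, which moved the median of all genes to -0.048, the positive signs numbered 21, with CHRM1, CHRM3 and DRD1 turning negative. The median log2 fold change was 0.086, against -0.0022 over all genes. It was 0.17 without transgenic library 2, 0.0053 without transgenic library 1, -0.020 without wild-type library 1 and 0.23 without wild-type library 2. In 9 genes both transgenic libraries lay above both wild-type libraries (19.5% of all genes did so), and in 2 they lay below (19.4% of all genes). The total of 11 is 28.2% of the 39 tested, against 38.9% of all genes. For 26 genes the log2 fold change was smaller than 0.3 in size. The 95% intervals were wide, with a median half-width of 0.74 on the log2 scale. For 17 genes the whole interval lay between -1 and 1, which is a change of less than 2-fold either way. For the other 22 the interval reached beyond that range.

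**Figure D1:**
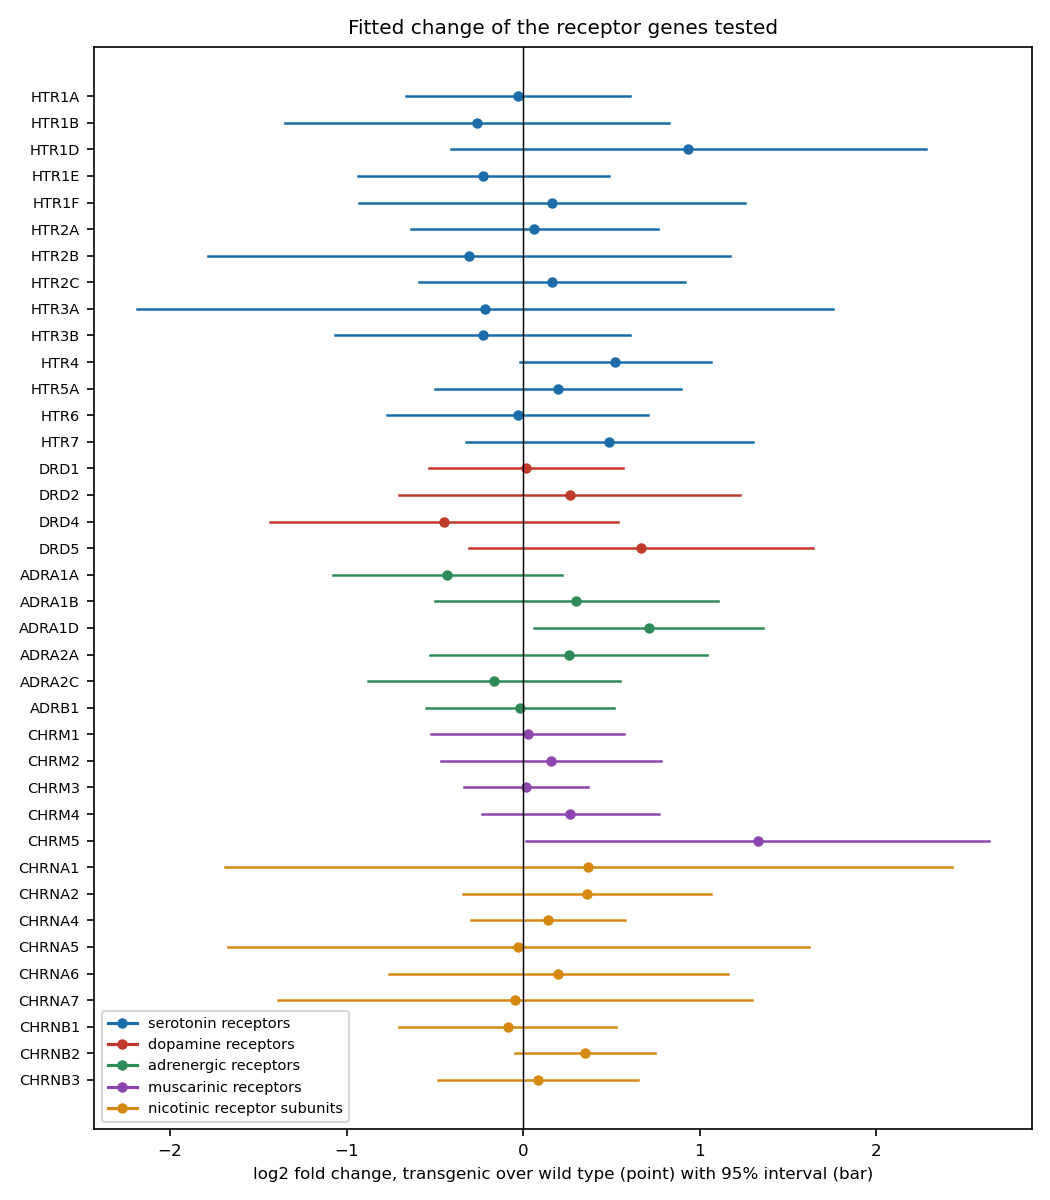
Fitted log2 fold change of 38 of the 39 receptor genes tested, transgenic over wild type, with 1 row per gene; points are the edgeR estimates from 2 libraries per group, bars their 95% intervals without adjustment for the number of genes, and colours the transmitter family. The intervals of ADRA1D and CHRM5 alone lie wholly on one side of 0, and the adjusted p of both is 0.79.

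The adrenergic receptors held the gene with the smallest p. ADRA1D, a Gq-coupled α1 receptor for noradrenaline, was at 17.0 and 27.3 CPM in the wild-type pair (libraries 1 and 2) against 36.9 and 35.6 CPM in the transgenic pair. Both transgenic libraries were above both wild-type libraries, and wild-type library 1 was the lowest. The fitted change was 1.63-fold (log2 0.71 ± 0.26 SE, n = 2 per group). The edgeR p was 0.037 unadjusted and 0.79 adjusted. The log2 fold change was 0.73 without transgenic library 2, 0.68 without transgenic library 1 and 0.41 without wild-type library 1. Its relative ADRA1A, also Gq-coupled, was at 104 and 66.3 CPM in the wild-type pair against 71.0 and 55.2 CPM in the transgenic pair. Here wild-type library 1 was the highest, and the groups overlapped. The log2 fold change of -0.43 ± 0.26 (adjusted p = 0.79) shrank to -0.075 without wild-type library 1. The third α1 receptor gene, ADRA1B, was at 17.0 and 12.9 CPM in the wild-type pair against 13.7 and 23.1 CPM in the transgenic pair, so that transgenic library 2 alone was above the wild-type range.

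ADRA2A and ADRA2C, Gi-coupled receptors that also act as brakes on noradrenaline release, had log2 fold changes of 0.26 and -0.17, and their groups overlapped. ADRB1, the Gs-coupled β1 receptor, was at 20.1 and 23.5 CPM in the wild-type pair against 24.3 and 18.8 CPM in the transgenic pair. Its log2 fold change was -0.019 with a 95% interval of -0.55 to 0.51. Over the 7 adrenergic genes tested, 3 had a positive sign and 4 a negative one, and the median log2 fold change was -0.019. It lay between -0.14 (without transgenic library 2) and 0.10 (without wild-type library 2) when each library was left out.

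All 5 muscarinic acetylcholine receptor genes were tested and all 5 were higher in sign, or 3 of 5 with library totals in place of TMM scaling. None passed. The median log2 fold change was 0.16, and it was 0.033 without transgenic library 1, 0.014 without wild-type library 1, 0.31 without wild-type library 2 and 0.36 without transgenic library 2. CHRM1, the Gq-coupled receptor of cortical pyramidal neurons, was at 107 and 141 CPM in the wild-type pair against 146 and 107 CPM in the transgenic pair. Each group held 1 high and 1 low library, and the log2 fold change was 0.025 (95% interval -0.52 to 0.57). CHRM3, also Gq-coupled, had the narrowest interval of all 39 genes. It was at 73.8 and 86.4 CPM in the wild-type pair against 80.0 and 82.0 CPM in the transgenic pair (log2 fold change 0.015, 95% interval -0.34 to 0.37).

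Among the Gi-coupled muscarinic genes, CHRM4 was at 17.4 and 20.3 CPM in the wild-type pair against 24.8 and 20.5 CPM in the transgenic pair. The groups did not overlap, though wild-type library 2 and transgenic library 2 were nearly equal (log2 fold change 0.27 ± 0.20, adjusted p = 0.80). CHRM2, whose receptor serves among other roles as a brake on acetylcholine release, had a log2 fold change of 0.16 with overlapping groups. CHRM5, a Gq-coupled receptor, had 4 and 6 counts in the wild-type pair against 14 and 16 in the transgenic pair. Both transgenic libraries were higher, on few counts. The fitted change was 2.51-fold (log2 1.33 ± 0.52 SE, n = 2 per group). The edgeR p was 0.048 unadjusted and 0.79 adjusted, and the unadjusted DESeq2 p was 0.26. In the RefSeq gene table of another marmoset assembly (calJac240_pri) CHRM5 overlaps AVEN and CHRM4 overlaps MDK. There 8 of the 51 receptor genes overlap a gene in the count table, the others being ADRA1A, CHRM1, CHRNA10, HTR1F, HTR2B and HTR2C. Strandedness was not given, so reads of overlapping genes may not be told apart. AVEN was at 6.04 and 4.39 CPM in the wild-type pair against 5.66 and 5.04 CPM in the transgenic pair. MDK was at 2.09 and 3.07 CPM and at 4.12 and 4.54 CPM.

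**Figure D2:**
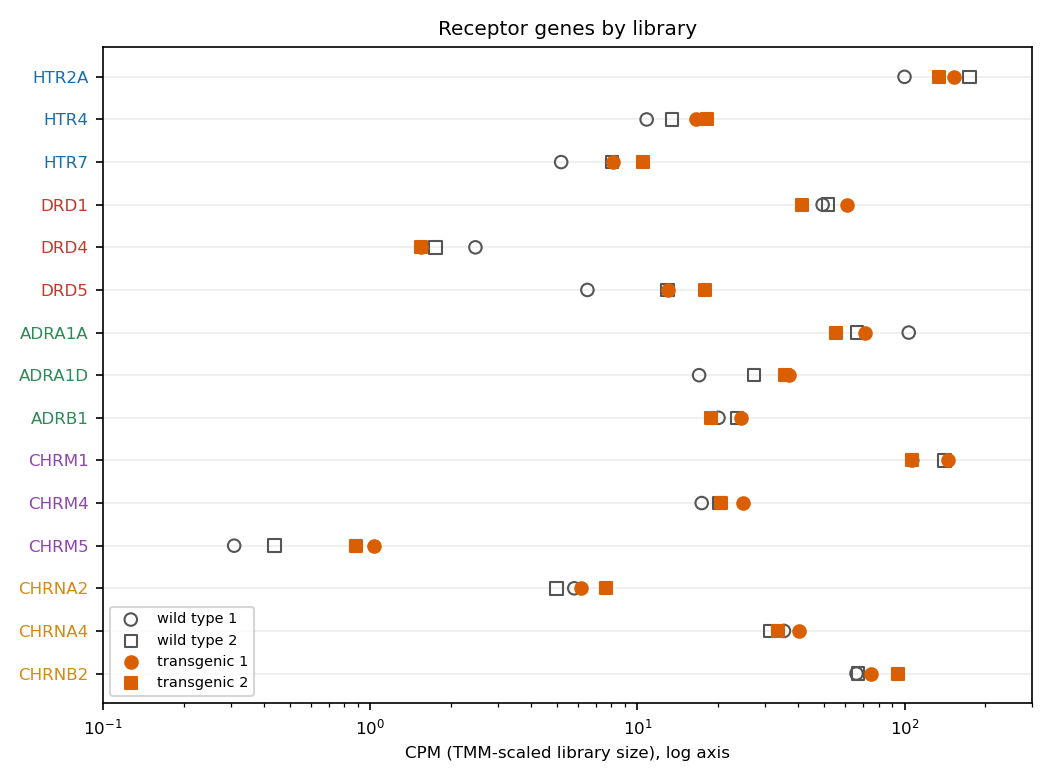
CPM of the 15 receptor genes described in most detail, with 1 row per gene on a log axis; grey open symbols are the wild-type libraries, orange filled symbols the transgenic libraries, circles library 1 and squares library 2. ADRA1D, CHRM5 and HTR4 have both orange symbols to the right of both grey ones, whereas HTR2A and CHRM1 have the groups interleaved.

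Of the 14 serotonin receptor genes tested, 7 had a positive and 7 a negative sign, and the median log2 fold change was 0.017, or -0.027 with library totals in place of TMM scaling. HTR2A, the Gq-coupled receptor on which classical psychedelic drugs act, had the most counts of the family. It was at 99.97 and 175 CPM in the wild-type pair against 153 and 135 CPM in the transgenic pair. Both transgenic libraries lay between the wild-type libraries, which differed from each other by 1.75-fold. The log2 fold change was 0.063 with a 95% interval of -0.64 to 0.76, and it was -0.29 without wild-type library 1 and 0.52 without wild-type library 2. The immediate early genes, which neurons induce upon activity, summed to 369 and 1006 CPM in the wild-type pair against 1177 and 520 CPM in the transgenic pair, so that wild-type library 1 was lowest and transgenic library 2 next in both. Their part in the spread of HTR2A was not tested.

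The Gs-coupled serotonin receptor genes are HTR4, HTR6 and HTR7. HTR4 was at 10.8 and 13.5 CPM in the wild-type pair against 16.6 and 18.3 CPM in the transgenic pair. The fitted change was 1.44-fold (log2 0.52 ± 0.21 SE, n = 2 per group). The edgeR p was 0.056 unadjusted and 0.79 adjusted. Its log2 fold change stayed between 0.37 and 0.69 when each library was left out in turn. HTR7 was at 5.18 and 8.05 CPM in the wild-type pair against 8.08 and 10.5 CPM in the transgenic pair, so that wild-type library 2 and transgenic library 1 were nearly equal (log2 fold change 0.49 ± 0.32, adjusted p = 0.80; 0.20 without wild-type library 1). HTR6 was at 10.1 and 12.9 CPM in the wild-type pair against 8.97 and 13.5 CPM in the transgenic pair, with overlapping groups.

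The Gi-coupled HTR1 genes and HTR5A had overlapping groups with 1 exception. HTR1D was the exception, with 11 and 8 counts in wild type and 13 and 32 in transgenic cortex (log2 fold change 0.94 ± 0.53, adjusted p = 0.79). HTR1B, whose receptor sits on axon terminals and restrains release, was at 8.67 and 10.4 CPM in wild type, 11.1 CPM in transgenic library 1 and 4.87 CPM in transgenic library 2. Transgenic library 2 alone was low, and the log2 fold change was 0.22 without it and -0.97 without transgenic library 1. HTR5A went the other way, at 17.3 and 18.1 CPM in wild type, 15.4 CPM in transgenic library 1 and 25.1 CPM in transgenic library 2. HTR1A, the somatodendritic receptor targeted by buspirone, was at 8.05 and 6.73 CPM in the wild-type pair against 7.28 and 7.20 CPM in the transgenic pair. HTR1E and HTR1F had log2 fold changes of -0.23 and 0.16.

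HTR2C, a Gq-coupled receptor that is also strongly expressed in choroid plexus, was at 4.87 and 7.02 CPM in the wild-type pair against 6.39 and 6.92 CPM in the transgenic pair. TTR, the defining choroid plexus transcript, had 1 and 0 counts in the wild-type pair against 7 and 2 in the transgenic pair. Of the 9 choroid plexus and ependymal markers 5 were tested, with 2 positive and 3 negative signs. Their summed level was 10.8 and 11.1 CPM in the wild-type pair against 14.0 and 5.76 CPM in the transgenic pair. HTR2B, which overlaps PSMD1 in the RefSeq gene table, had 18 to 40 counts per library and overlapping groups. Of the channel subunits, HTR3A, a marker of a class of cortical interneurons, had 5 and 28 counts in the wild-type pair against 16 and 17 in the transgenic pair. The wild-type libraries differed by 5.29-fold in CPM, the widest ratio within the wild-type pair among the 39 genes, and enclosed both transgenic values. The markers of the interneuron class from the caudal ganglionic eminence, to which such cells belong, summed to 634 and 703 CPM in the wild-type pair against 633 and 730 CPM in the transgenic pair. HTR3B, its partner subunit, was at 2.60 to 3.66 CPM in all 4 libraries.

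Of the dopamine receptor genes, 4 of 5 were tested, 3 of them higher in sign (2 with library totals). DRD1, the Gs-coupled receptor that predominates in cortex, was at 49.4 and 51.8 CPM in the wild-type pair against 61.0 and 41.4 CPM in the transgenic pair. The transgenic libraries lay on either side of the wild-type pair. The log2 fold change was 0.016 (95% interval -0.53 to 0.56), 0.27 without transgenic library 2 and -0.29 without transgenic library 1, and its sign was negative in limma-voom and with library totals in place of TMM scaling. DRD5, the other Gs-coupled dopamine receptor, was at 6.50 and 12.9 CPM in the wild-type pair against 13.0 and 17.9 CPM in the transgenic pair. Wild-type library 1 was low, and wild-type library 2 and transgenic library 1 were nearly equal. The fitted change was 1.59-fold (log2 0.67 ± 0.39 SE, with n = 2 per group and an adjusted p of 0.79), and the log2 fold change was 0.25 without wild-type library 1 and 1.25 without wild-type library 2.

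The Gi-coupled dopamine receptors had few counts. DRD4 was at 2.48 and 1.76 CPM in the wild-type pair against 1.54 and 1.55 CPM in the transgenic pair, both below the wild-type pair (log2 fold change -0.45 ± 0.39, adjusted p = 0.81). DRD2, the target of antipsychotic drugs, had 20 to 34 counts per library and a log2 fold change of 0.26. DRD3 had no count in any library. The D2-type receptors are abundant in striatum. Among the 12 striatal projection neuron markers, which include DRD1 and DRD2, ADORA2A had 14 to 27 counts per library and ISL1 at most 1, and the summed level was 296 to 353 CPM, with the groups overlapping.

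By coupling, the Gs receptors had 3 of 7 genes tested with both transgenic libraries above both wild-type libraries (HTR4, HTR7 and DRD5). The corresponding share over all genes was 19.5%. The median log2 fold change of the Gs genes was 0.016. The Gi genes had 2 of 12 above (CHRM4 and HTR1D) and a median of 0.16. The Gq genes had 2 of 9 above (ADRA1D and CHRM5) and a median of 0.063, and the channel subunits 2 of 11 above and a median of 0.086. No class had a member past the test. The class medians moved with single libraries. Leaving out transgenic library 2 gave 0.27 for the Gs and 0.29 for the Gi genes, leaving out transgenic library 1 gave 0.23 and -0.012, and leaving out wild-type library 1 gave -0.020 for both. The Gq median was 0.33 without wild-type library 2 and -0.078 without wild-type library 1. That of the channel subunits was 0.19 without wild-type library 1 and -0.17 without transgenic library 1.

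Of the 16 nicotinic receptor subunit genes, 9 were tested, 6 of them higher in sign, and the median log2 fold change was 0.14. It was 0.0053 without transgenic library 1, 0.062 without wild-type library 2 and 0.22 without wild-type library 1. CHRNA4 and CHRNB2 encode the subunits of the main high-affinity nicotinic receptor of the brain. CHRNB2 was at 66.1 and 66.9 CPM in the wild-type pair against 75.2 and 94.3 CPM in the transgenic pair. The wild-type libraries were nearly equal and transgenic library 2 was the highest. The fitted change was 1.27-fold (log2 0.35 ± 0.16 SE, n = 2 per group). The edgeR p was 0.073 unadjusted and 0.79 adjusted. Without transgenic library 1 the adjusted p was 0.070 and the log2 fold change 0.50. Leaving out transgenic library 2 instead gave a log2 fold change of 0.17. Its partner CHRNA4 was at 35.4 and 31.5 CPM in the wild-type pair against 40.3 and 33.6 CPM in the transgenic pair, with overlapping groups (log2 fold change 0.14, 95% interval -0.29 to 0.58). CHRNA2 was at 5.80 and 4.97 CPM in the wild-type pair against 6.17 and 7.64 CPM in the transgenic pair, with a gap between the groups smaller than the difference within either (log2 fold change 0.36 ± 0.28, adjusted p = 0.80).

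CHRNA7, which forms the homomeric receptor that amyloid-β has been reported to bind, differed more between the wild-type libraries than between the groups. It was at 7.35 and 2.56 CPM in wild type, a 2.87-fold ratio, and at 5.22 and 4.38 CPM in transgenic cortex. Both transgenic values lay within the wild-type range (log2 fold change -0.046 ± 0.53). CHRNA5, the accessory subunit found in deep-layer neurons, had 15 and 12 counts in the wild-type pair against 21 and 9 in the transgenic pair. CHRNB3 and CHRNA6, neighbours in the RefSeq gene table, encode subunits best known from midbrain dopamine neurons. CHRNB3 was at 21.3 and 15.7 CPM in the wild-type pair against 18.4 and 20.9 CPM in the transgenic pair, and CHRNA6 had 20 to 32 counts per library. Both had overlapping groups. Of the subunits of the muscle receptor, CHRNB1 was at 9.58 to 12.8 CPM in all 4 libraries and CHRNA1 had 6 to 26 counts, whereas CHRND and CHRNG had at most 1 count in any library.

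The 12 genes that were not tested had at most 15 counts in any library. Besides CHRND, CHRNG and DRD3 they were ADRA2B, ADRB3, CHRNA3, CHRNA9, CHRNA10, CHRNB4, CHRNE, HTR3C and HTR3E. HTR3E, like DRD3, had no count in any library, and 7 of the 12 had at most 2 counts in every library. CHRNB4 had 2 and 3 counts in the wild-type pair against 6 and 15 in the transgenic pair. CHRNE had 6 and 5 counts in wild type, 7 in transgenic library 1 and 0 in transgenic library 2. CHRNA3, which lies between CHRNA5 and CHRNB4 in the same gene table, had 0 to 6 counts. These genes did not pass the count filter of the main test. With no filter on low counts, 49 of the 51 receptor genes were tested and 0 were called, where 0.0185% of all genes were.

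In 32 of the 39 genes the ratio of the higher to the lower library within at least 1 group exceeded the fitted fold change between groups. The share over all genes was not computed, so this count cannot be read as particular to the receptor genes. The median ratio within the wild-type pair was 1.32 for the receptor genes and 1.14 for all genes, and within the transgenic pair 1.29 and 1.23. Such ratios also grow with counting noise, and all genes were not matched to the receptor genes for count. Of the 39 receptor genes, 11 had a mean count under 50. Wild-type library 1 was the lowest of the 4 libraries in 16 of the 39 receptor genes, or 41.0%, against 24.1% of all genes. Transgenic library 1 was the highest in 16, again 41.0%, against 19.7% of all genes. Transgenic library 2 was the highest in 9 (23.1%, against 35.1% of all genes) and the lowest in 10 (25.6%, against 35.5% of all genes).

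**Figure D3:**
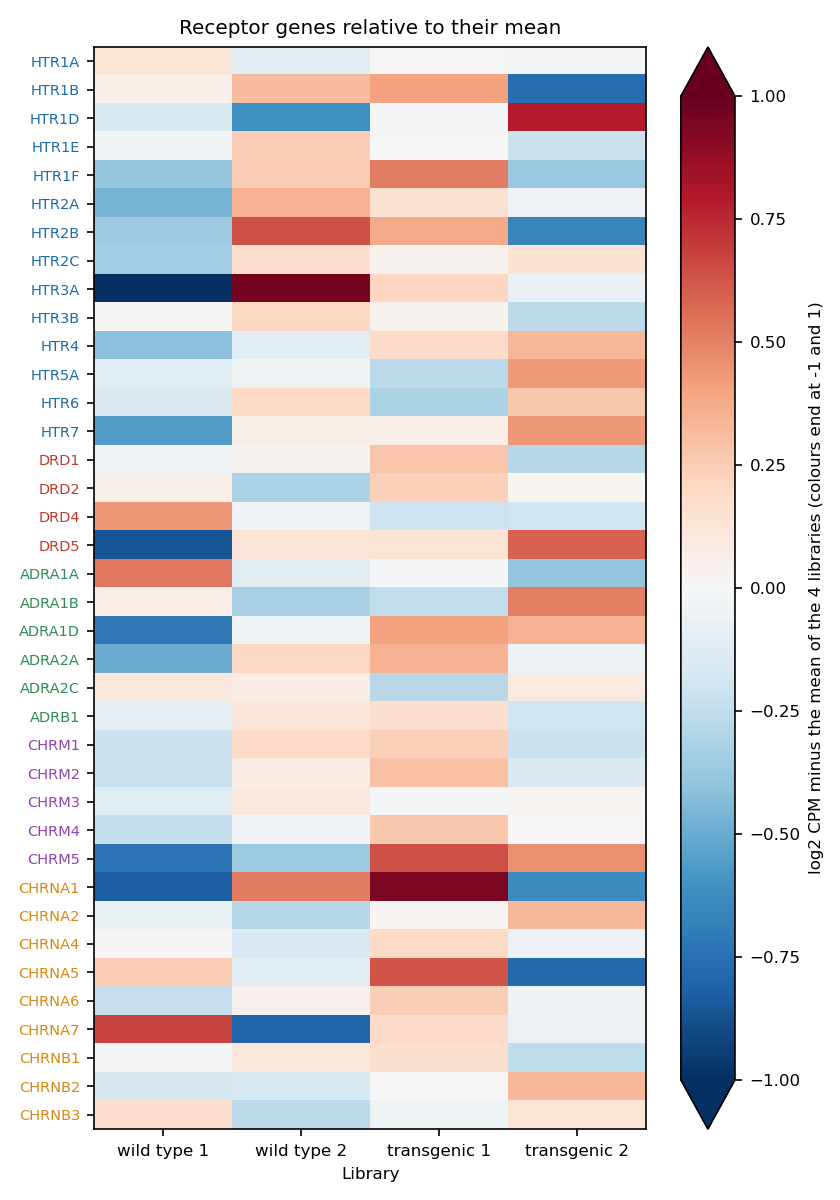
Log2 CPM of 38 of the 39 receptor genes tested, each minus its mean over the 4 libraries, with 1 row per gene and 1 column per library; red is above and blue below the mean, and gene names are coloured by transmitter family. Wild-type library 1 holds the lowest value in 16 rows and transgenic library 1 the highest in 16, and HTR3A and CHRNA7 differ most visibly between the wild-type columns.

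Each transgenic library was also fitted alone against the wild-type pair. Both fits share the wild-type libraries, so their values are given side by side as a description. In 18 of the 39 genes the sign differed between the fits. Of these, 12 were positive in transgenic library 1 and negative in transgenic library 2, and 6 were the reverse. CHRM5 had a log2 fold change of 1.43 in transgenic library 1 and 1.22 in transgenic library 2, and HTR4 of 0.45 and 0.59. HTR7 had 0.28 and 0.66, DRD5 0.41 and 0.88, and HTR1D 0.41 and 1.30, the second library being the higher in all 3. HTR1B, HTR2B and CHRNA5 were higher in sign in library 1 and lower in library 2, with log2 fold changes of 0.22 and -0.97, 0.16 and -0.96, and 0.59 and -1.02. Without transgenic library 1, the count of receptor genes at an unadjusted p under 0.05 was 5 (ADRA1B, CHRNB2, HTR1B, HTR4 and HTR5A), or 12.8% of the 39, where 26.5% of all genes were under that value. The fit called 1154 genes over the whole table (7.04%) and none of these. Without transgenic library 2 it was 1, ADRA1D, or 2.56%, where 4.7% of all genes were, and 0.0183% of all genes were called.

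**Figure D4:**
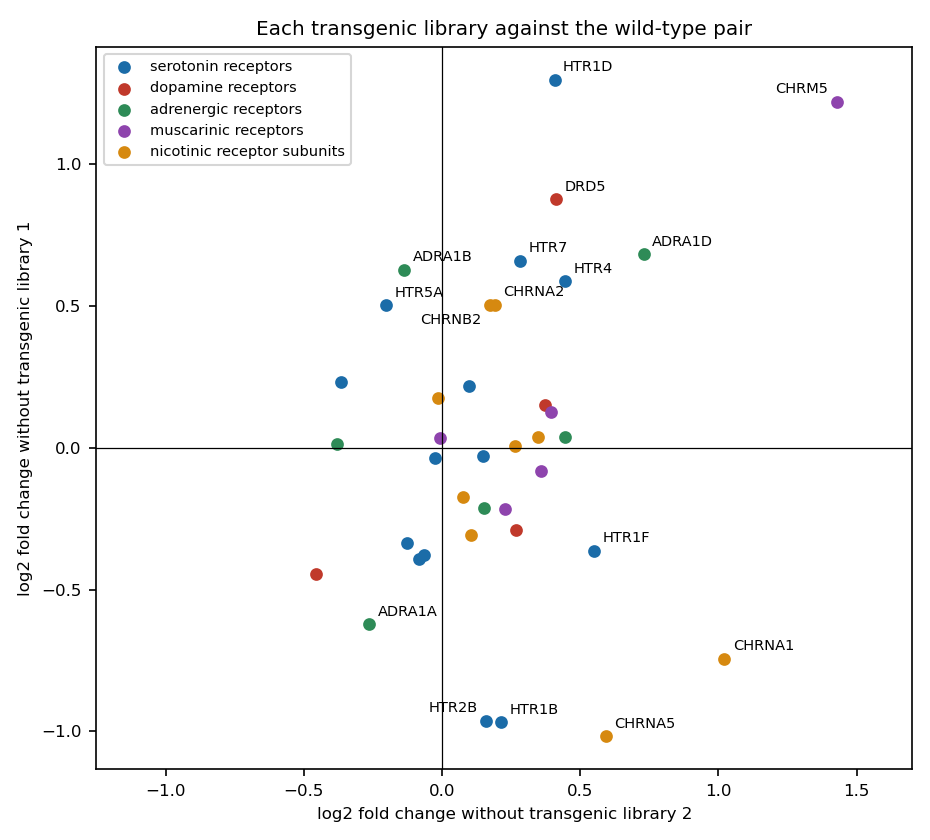
Log2 fold change of 38 of the 39 receptor genes when transgenic library 2 is left out (horizontal axis) and when transgenic library 1 is left out (vertical axis), each against both wild-type libraries; 1 point per gene, coloured by transmitter family, with the outer points named. CHRM5 lies at 1.43 and 1.22, whereas CHRNA5 lies at 0.59 and -1.02; both axes share the wild-type libraries.

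The genes that make, carry and break down these transmitters had few counts where they mark the projecting neurons. CHAT, the acetylcholine-synthesising enzyme, had 0 counts in both wild-type libraries and 2 and 0 in transgenic cortex. The dopamine transporter gene SLC6A3 had 4 and 0 counts in the wild-type pair against 2 and 2 in the transgenic pair, and the serotonin transporter gene SLC6A4 0 and 3 against 11 and 2. TH, the rate-limiting enzyme of catecholamine synthesis, had 3 and 14 counts in the wild-type pair against 16 and 26 in the transgenic pair. DBH, which converts dopamine to noradrenaline, had 2 and 4 counts and 10 and 18 counts (unadjusted p = 0.024, adjusted p = 0.79 in edgeR).

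Of the 23 genes of synthesis, transport and breakdown, 13 were tested and 0 passed, with 8 positive and 5 negative signs and a median log2 fold change of 0.17. The median was -0.15 without transgenic library 1 and -0.049 without wild-type library 2. MAOB, a monoamine oxidase concentrated in astrocytes, was at 79.9 and 94.6 CPM in the wild-type pair against 113 and 167 CPM in the transgenic pair. Transgenic library 2, where the astrocyte markers were lowest, had the highest MAOB level. The fitted change was 1.60-fold (log2 0.68 ± 0.22 SE, with n = 2 per group and an edgeR adjusted p of 0.79). Leaving out transgenic library 2 gave a log2 fold change of 0.37. Leaving out transgenic library 1 gave 0.93 and an edgeR adjusted p of 0.024, so that MAOB was called, in a fit that called 7.04% of all genes. COLQ, which anchors acetylcholinesterase in muscle, was at 11.6 and 11.2 CPM in the wild-type pair against 17.1 and 16.0 CPM in the transgenic pair. These libraries agreed closely within each group, and the adjusted p was 0.79. The acetylcholinesterase gene ACHE was at 35.1 and 24.7 CPM and at 29.6 and 38.1 CPM, with overlapping groups.

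Genes that act downstream or on the receptors themselves were not called with all 4 libraries. Of 27 G protein, cyclase and phospholipase genes tested, 16 had a positive and 11 a negative sign, the median log2 fold change was 0.074 and 0 passed the test. The 3 with the smallest p were ADCY8 (adenylyl cyclase 8), GNB2 (a G protein β subunit) and PLCB4 (a phospholipase C), with log2 fold changes of 0.40, 0.24 and -0.24. These were 0.12, 0.10 and -0.17 without transgenic library 2. PLCB3, another phospholipase C gene, was at 12.9 and 12.2 CPM in the wild-type pair, 10.3 CPM in transgenic library 1 and 2.05 CPM in transgenic library 2. It was the only gene of the 27 called without transgenic library 1 (log2 fold change -2.61, edgeR adjusted p = 0.0077). Of 18 arrestin, receptor kinase and RGS genes, 8 had a positive and 10 a negative sign, and 0 passed. RGS proteins shorten G protein signals. RGS14 was at 18.6 and 22.5 CPM in the wild-type pair against 30.6 and 38.8 CPM in the transgenic pair (log2 fold change 0.76 ± 0.21, n = 2 per group; unadjusted p = 0.013 and adjusted p = 0.79 in edgeR). RGS20 was at 20.1 and 20.8 CPM and at 15.4 and 9.63 CPM, and RGS10, a gene also expressed in microglia, at 2.71 and 3.44 CPM and at 1.98 and 1.33 CPM. Once transgenic library 1 was left out, RGS14 and RGS20 were called by edgeR, 2 of the 18 (11.1%) where 7.04% of all genes were, with adjusted p-values of 0.047 and 0.036 and log2 fold changes of 0.92 and -1.09. Without transgenic library 2 these log2 fold changes were 0.57 and -0.42, with an adjusted p of 0.95 for both. Of 9 nicotinic receptor chaperones and modulators tested, 6 were higher in sign and 0 passed. LY6E and TMEM35A, both among the 3 with the smallest p, had log2 fold changes of 0.45 and 0.28. TMEM35A was at 63.2 and 60.3 CPM in the wild-type pair against 59.8 and 90.0 CPM in the transgenic pair. Transgenic library 2 alone was high, and without it the log2 fold changes of LY6E and TMEM35A were 0.16 and -0.052.

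Bulk tissue cannot separate fewer cells of a type from less RNA per cell. Neuronal lists differed less between libraries than glial lists. Of 15 deep-layer markers 13 were higher in sign (median log2 fold change 0.27), with summed levels of 795 and 827 CPM in the wild-type pair against 943 and 870 CPM in the transgenic pair. Of 9 inhibitory neuron markers 7 were higher in sign (median 0.18), and of 8 excitatory markers 5 (median 0.073, but -0.067 without wild-type library 1 and -0.037 without transgenic library 2). Astrocyte markers were lower in sign in 11 of 12 (median -0.53, and -0.076 without transgenic library 2) and oligodendrocyte markers in 11 of 12 (median -0.49, and -0.012 without it). Microglia markers were lower in sign in 12 of 14 (median -0.81), with summed levels of 272 and 335 CPM in the wild-type pair against 178 and 166 CPM in the transgenic pair. Meningeal fibroblast markers summed to 33.6 and 172 CPM in the wild-type pair against 223 and 41.9 CPM in the transgenic pair. Wild-type library 1 and transgenic library 2 were the low ones, as for the immediate early genes. The part of these differences in the receptor values was not tested.

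**Figure D5:**
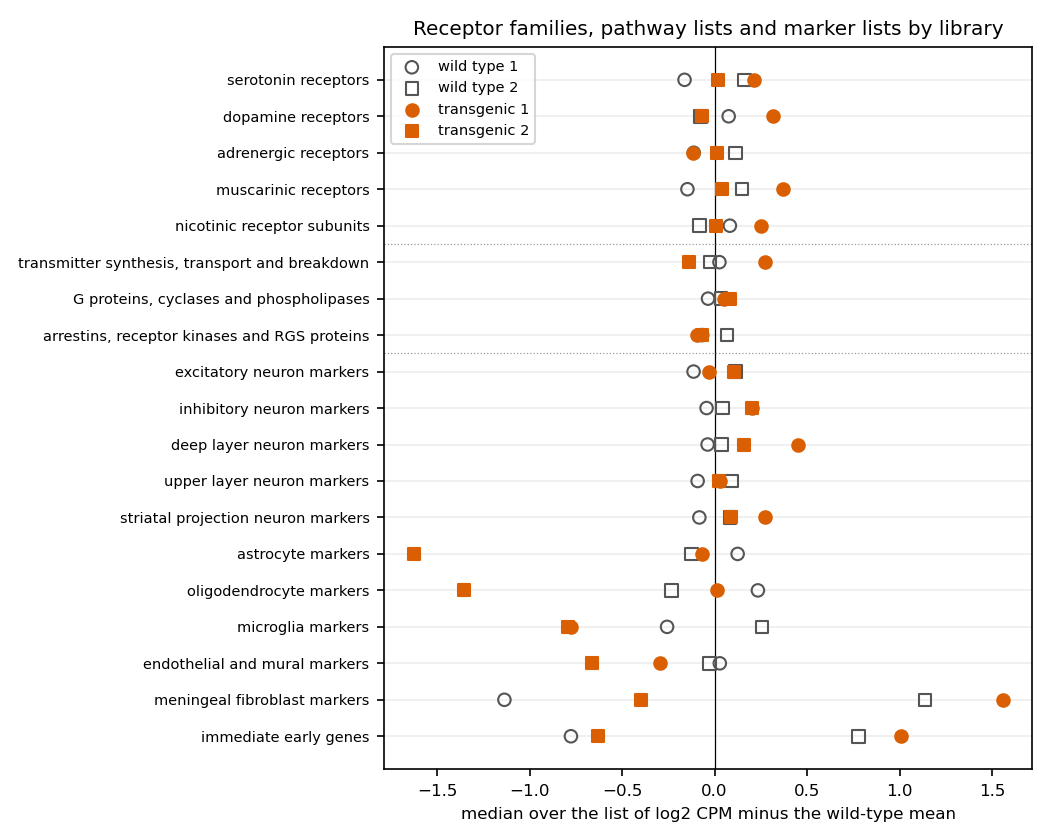
Median over each gene list of log2 CPM minus the wild-type mean, with 1 row per list; grey open symbols are wild-type and orange filled symbols transgenic libraries, circles library 1 and squares library 2. The receptor families at the top lie between -0.16 and 0.37 in every library, whereas the astrocyte and oligodendrocyte lists are below -1 in transgenic library 2 and the immediate early genes are spread in both groups.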

How the data were processed

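A table of raw counts for each gene symbol, with 1 column for each of the 4 libraries, was deposited by the authors. Per the submitters' processing notes the tools were kallisto 0.46.2, STAR 2.5.3a and featureCounts 1.5.2, and which did what is not stated. Genome build, annotation and strandedness were not given in the sources used here. Neither coordinates nor sequences are printed. Libraries were compared in pairs, and all pairs differed beyond counting noise (chi-square over its degrees of freedom between 7.62 and 48.1).

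Counts were analysed in R 4.3.3 over the whole table. Genes were kept with filterByExpr (16385 genes), scaled by TMM and tested in edgeR 4.0.16 by its quasi-likelihood F-test on genotype alone, with 2 residual degrees of freedom. The Benjamini-Hochberg adjustment ran over the whole set of genes kept, and 0.05 was the threshold. P-values set the difference between groups against the spread between these libraries, which may be technical. The steps were tested on simulated data. DESeq2 1.42.0, limma-voom (limma 3.58.1), other scalings and filters, the replicate number as a block and leaving out each library were alternatives. With 1 library left in a group, it was assumed to vary like the other group. Gene lists matched the table by symbol (267 of 275 entries in the pathway and marker lists). HTR3D was not analysed here, and the values of 1 tested receptor gene and 1 pathway gene are not reported here, although they enter the counts and medians.

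A rule picked the 15 receptor genes described in most detail. It took those at an unadjusted p under 0.05 and those with a mean count of at least 20 whose groups did not overlap. It then added those with the most counts until each family had 3. From each pathway list the 3 with the smallest p were taken. Other genes with values were chosen after their values were seen. The members and lists were chosen with earlier results of these data known. Overlapping and neighbouring genes came by symbol from RefSeq's calJac240_pri table, where 51 of 51 members matched.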

Additional observations from a re-analysis of the deposited data

How the results depend on the processing

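No receptor gene passed an adjusted p of 0.05 under any of the 12 alternatives run. The count of receptor genes at an unadjusted p under 0.05 was 2 in the reported fit (5.62% of all genes). It was also 2 with limma-voom, but these were ADRA1D and HTR4 (5.6% of all genes). It was 1 with DESeq2 (5% of all genes), with library totals without scaling (5.48%) and with no filter on low counts (5.67%). It was 1 as well with a mean count of at least 50 (5.28%) and with the replicate block (5.04%). It lay between 0 and 5 when each library was left out, where the share of all genes under that value lay between 1.53% and 26.5%, the highest without transgenic library 1 in both. The count of genes called over the whole table was 48 with DESeq2, 5 with no filter on low counts, and 0 to 1154 when each library was left out, the highest without transgenic library 1. The receptor genes whose groups did not overlap numbered 7 of the 28 with a mean count of at least 50 (25%, against 39.5% of all genes under that filter). With a library left out, 3 libraries overlap less often than 4. The count was then 24 (61.5%, against 62.7% of all genes) without wild-type library 1, 25 (64.1% against 65.7%) without wild-type library 2, 24 (61.5% against 81.1%) without transgenic library 1 and 27 (69.2% against 68.4%) without transgenic library 2. The median of the adrenergic genes was 0.11 with a mean count of at least 50. With a library left out, the serotonin median lay between -0.16 and 0.39 and the dopamine median between -0.070 and 0.32. Among the 15 genes picked by rule, 5 of 118 values under the alternatives that kept all libraries changed sign. They were CHRM1 at -0.014 with library totals, and DRD1 at -0.023 with limma-voom, -0.022 with library totals, -0.0094 with the replicate block and -0.0088 with the numbers crossed. Sign changes of the other receptor genes are not in this tally, and CHRM3, outside the 15, also turned negative with library totals. With a library left out, ADRB1 ranged from -0.21 to 0.15, CHRM1 from -0.22 to 0.24, DRD1 from -0.29 to 0.27 and HTR2A from -0.29 to 0.52.

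The difference between library 1 and library 2 was only weakly and inversely related between the groups (correlation over genes -0.14). The labels do not say that a number marks a shared batch, so the numbers were not taken to pair the libraries. A block with the numbers crossed, added after seeing the data, gave 1 receptor gene at an unadjusted p under 0.05 (5.24% of all genes). Depth limits the 12 receptor genes not tested and the 11 tested with a mean count under 50.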

Other observations

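Histamine, another monoamine, acts through receptors outside the families above. Of 6 further amine receptor genes, 3 were tested, and all 3 were higher in sign and did not pass. With wild-type library 1 or transgenic library 1 left out, 2 of the 3 were higher in sign. HRH3, a Gi-coupled receptor that restrains transmitter release, was at 40.5 and 27.3 CPM in the wild-type pair against 46.0 and 55.1 CPM in the transgenic pair. Both transgenic libraries were above the wild-type pair (log2 fold change 0.58 ± 0.24 SE, n = 2 per group; unadjusted p = 0.054 and adjusted p = 0.79 in edgeR). HRH1, which is Gq-coupled, was at 25.1 and 29.2 CPM in the wild-type pair against 34.0 and 29.8 CPM in the transgenic pair. HRH2, which is Gs-coupled, was at 36.3 and 43.1 CPM and at 48.7 and 35.5 CPM, with overlapping groups. Its log2 fold change was -0.16 without transgenic library 1.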
